A study of Mus musculus with 11 samples.

Results

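The genes examined were Aco1, which encodes iron regulatory protein 1 (Irp1), Ireb2, which encodes iron regulatory protein 2 (Irp2), and Fbxl5, which encodes the F-box protein that marks Irp2 for degradation. They were taken by gene symbol, and each matched 1 row, so that 3 of the 24411 genes in the count table are described here. RNA-seq was performed on whole decapsulated testes of mice aged 20 weeks, with 4 WT, 4 Irp1-/- and 3 Irp2-/- samples. WT mice are labelled C57Bl/6J, and the study's methods describe them as littermates from crosses of Irp1+/- mice. Irp1-/- mice carry a global knockout of Aco1 (allele Aco1tm1Roua), so the targeted allele is in every cell of the body rather than in 1 testicular cell type. Irp2-/- mice carry a global knockout of Ireb2, and the origin and background of that line are not given in the sources used here. The labels give no treatment for any group.

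Both iron regulatory proteins bind iron-responsive elements, short hairpins in the untranslated regions of transcripts for iron uptake, storage and export. Bound to the start of a transcript they block its translation, as for ferritin, and bound to its end they protect it from decay, as for the transferrin receptor. Irp1 is also cytosolic aconitase: with an iron-sulfur cluster it converts citrate to isocitrate, and without the cluster it binds RNA. Irp2 has no such enzyme activity and is controlled by its stability, because Fbxl5, which senses iron and oxygen, brings it to an SCF ubiquitin ligase when iron is plentiful. This control of Irp1 and Irp2 acts largely on the proteins, which were not analysed here. The questions for the RNA were how much transcript each knockout retained and whether the other iron regulatory protein or Fbxl5 differed when 1 of them was missing.

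Total counts lay between 15902473 and 22451417 in the 11 samples. Levels are given as CPM, that is, counts scaled to a sample's total, and the 95% confidence intervals are those of the edgeR fits, which include the spread between samples. The markers of germ cells, Sertoli cells, Leydig cells, peritubular myoid cells and macrophages were all detected in every genotype. Of the epididymis markers, Adam7 and Lcn8 were at 0 in WT and Irp1-/- testes, and that list summed to at most 0.252 CPM in any sample. The labels do not state that samples of a genotype came from separate animals, so p-values measure the spread between these samples.

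Aco1 and Ireb2 are homologous genes, and reads shared between them could carry signal of an intact gene into a deleted one. The transcripts were therefore compared. Aco1 lies on chr4:40143265-40199009 (mm10, plus strand), with a principal transcript of 3832 bases in 21 exons. Ireb2 lies on chr9:54862658-54912534 (plus strand), with 5770 bases in 22 exons. Fbxl5 lies on chr5:43744618-43782149 (minus strand), with 2858 bases in 11 exons. The longest identical stretch between the Aco1 and Ireb2 transcripts of GENCODE M21 was 14 bases, and it is shown because it bounds the sequence that a read could share. Capitals mark the shared bases and lower case the 8 bases on each side.
Aco1: taacaccaCGAGAGTTCAACTCctatggct
Ireb2: ttactcccCGAGAGTTCAACTCttatggag
The capitals lie in coding sequence of exon 18 of Aco1 (chr4:40190747-40190760) and of exon 19 of Ireb2 (chr9:54906579-54906592). Of all windows of 50 bases, the read length of the study, 0 of 3783 in Aco1, 0 of 5721 in Ireb2 and 0 of 2809 in Fbxl5 occurred in a transcript of any other gene. The 3 genes could thus be counted apart from each other by exact matches, while matches with mismatches were not examined.

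In Irp1-/- testes the targeted gene was still counted. Aco1 had 9.59, 12.2, 12.1 and 12.9 CPM in WT replicates 1 to 4, 9.19, 9.04, 7.98 and 8.17 CPM in Irp1-/- replicates 1, 2, 6 and 7, and 11.9, 10.02 and 13.7 CPM in Irp2-/- replicates 1 to 3. Every Irp1-/- sample lay below every WT and every Irp2-/- sample, with WT replicate 1 the nearest. The means were 11.7 ± 1.46 CPM in WT (SD, n = 4), 8.60 ± 0.605 CPM in Irp1-/- (SD, n = 4) and 11.9 ± 1.85 CPM in Irp2-/- testes (SD, n = 3). Aco1 fell in Irp1-/- against WT testes, with a log2 fold change of -0.45 (edgeR's quasi-likelihood test, SE 0.0977, adjusted p = 0.0158). This left 73.0% of the WT level (95% confidence interval 63.6% to 83.9%). In that comparison 164 of the 16002 genes tested were called at an adjusted p under 0.05, which is 1.02%, and 6.18% of genes had groups that did not overlap. Aco1 was in place 80 by p-value among all genes tested and in place 41 of the 164 by the size of its change.

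The reads behind these values were few, between 130 and 266 counts per sample. Counting error alone gives a coefficient of variation of 7.83% in Irp1-/- and 7.02% in WT samples, and the measured values were 7.04% and 12.5%. The table counts reads over the whole gene, so that reads from exons outside the deleted part and reads from an intact transcript cannot be told apart. The adjusted p was 0.0683 without Irp1-/- replicate 6, 0.0711 without WT replicate 2, 0.0520 without WT replicate 3 and 0.0750 without WT replicate 4 (edgeR).

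**Figure D1:**
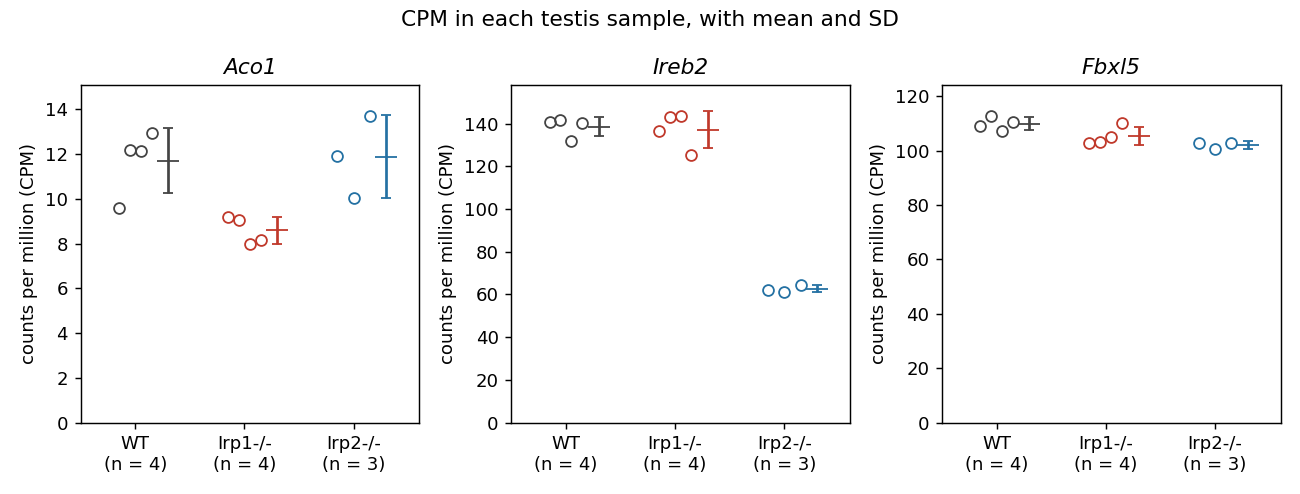
CPM of Aco1, Ireb2 and Fbxl5 in each of 11 testis samples, by genotype (points: samples; bars: mean ± SD; linear axes from 0). Aco1 falls to between 7.98 and 9.19 CPM in Irp1-/- and Ireb2 to between 61.3 and 64.4 CPM in Irp2-/- testes, whereas Fbxl5 stays between 101 and 113 CPM in all samples.

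Ireb2 was reduced more deeply by its own knockout. It had 141, 142, 132 and 140.1 CPM in WT replicates 1 to 4 and 62.3, 61.3 and 64.4 CPM in Irp2-/- replicates 1 to 3. The genotypes were far apart, and no Irp2-/- sample came near the lowest WT sample. The means were 139 ± 4.45 CPM in WT (SD, n = 4) and 62.7 ± 1.60 CPM in Irp2-/- testes (SD, n = 3). The log2 fold change was -1.16 (edgeR, SE 0.0501, adjusted p = 2.8e-13), which left 44.6% of the WT level (95% confidence interval 41.5% to 47.9%). Of the 16154 genes tested there, 196 were called (1.21%), and 9.76% had groups that did not overlap. Ireb2 had the smallest p-value of all these genes, and by size of change it was in place 24 of the 196. As for Aco1, the counts do not show which exons the remaining reads came from.

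Neither iron regulatory gene differed detectably when the other was deleted. In Irp1-/- replicates 1, 2, 6 and 7, Ireb2 had 137, 143, 144 and 125 CPM, with a mean of 137 ± 8.62 CPM (SD, n = 4). These values spanned the WT range on both sides. The log2 fold change against WT was -0.03 (edgeR, SE 0.0455, adjusted p = 0.882), with a 95% confidence interval of 92.1% to 105% of the WT level. Aco1 in Irp2-/- testes was at 100.1% of WT (log2 fold change 0.00, standard error 0.110, adjusted p = 0.999, edgeR). Its interval, 85.4% to 117%, was wider than that of Ireb2, with fewer counts behind it. A rise of either gene beyond these upper bounds is outside the intervals, and smaller differences were not detectable with these samples.

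When the knockouts were set against each other, Aco1 was lower in Irp1-/- than in Irp2-/- testes by a log2 fold change of -0.45 (edgeR, SE 0.107, adjusted p = 0.0141). Ireb2 was higher by 1.14 on the log2 scale (edgeR, SE 0.0553, adjusted p = 9.2e-12), or 221% of its Irp2-/- level (95% confidence interval 204% to 239%). Both genes separated the knockouts without overlap. In this comparison 4.69% of 16281 genes were called and 15.1% did not overlap. These comparisons share their samples with those against WT and are not further evidence of them. Without Irp2-/- replicate 3 the adjusted p of Aco1 was 0.103 (edgeR).

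Fbxl5, the adaptor that recognises Irp2, passed the test in none of the 3 comparisons. It had 109, 113, 107 and 110.4 CPM in WT replicates 1 to 4, 103, 103, 105 and 110.2 CPM in Irp1-/- replicates 1, 2, 6 and 7, and 103, 101 and 103 CPM in Irp2-/- replicates 1 to 3. The means were 109.9 ± 2.42 CPM in WT, 105 ± 3.36 CPM in Irp1-/- (SD, n = 4 each) and 102 ± 1.37 CPM in Irp2-/- testes (SD, n = 3). All Irp2-/- samples lay below all WT samples, whereas Irp1-/- replicate 7 lay within the WT range. Against WT the log2 fold change was -0.12 in Irp2-/- testes (edgeR, SE 0.0466, adjusted p = 0.306), with a 95% confidence interval of 85.8% to 98.04% of the WT level. In Irp1-/- testes it was -0.07 (edgeR, SE 0.0410, adjusted p = 0.489), with an interval of 89.6% to 101%. Between the knockouts the difference was 0.05 on the log2 scale (edgeR, SE 0.0477, adjusted p = 0.652). Since 9.76% of all genes had groups without overlap in Irp2-/- against WT, the separation of Fbxl5 there is not read as a result. The spread of Fbxl5 within genotypes was 1.35% to 3.19% as a coefficient of variation, against 2.21% to 2.28% from counting alone.

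**Figure D2:**
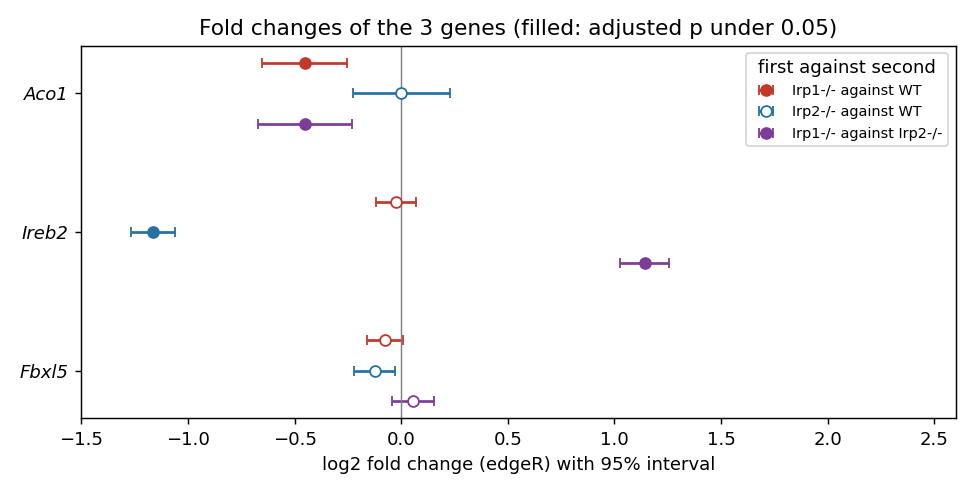
Log2 fold change of Aco1, Ireb2 and Fbxl5 in each of 3 comparisons (points: edgeR estimates; bars: 95% confidence intervals; filled: adjusted p under 0.05; vertical line: no difference). Ireb2 in Irp2-/- against WT lies at -1.16 and Aco1 in Irp1-/- against WT at -0.45, while every interval of Fbxl5 lies between -0.22 and 0.15.

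Levels of different genes were compared per kilobase of transcript. In WT testes Fbxl5 had 38.4 ± 0.847, Ireb2 24.0 ± 0.772 and Aco1 3.05 ± 0.381 CPM per kilobase (SD, n = 4). In Irp1-/- testes the values in the same order were 36.9 ± 1.18, 23.8 ± 1.49 and 2.24 ± 0.158 CPM per kilobase (SD, n = 4). In Irp2-/- testes they were 35.7 ± 0.481, 10.9 ± 0.277 and 3.10 ± 0.482 CPM per kilobase (SD, n = 3). The order from Fbxl5 to Aco1 was the same in every sample, and the ranges of the 3 genes did not touch within any genotype. Even in Irp2-/- testes the residual Ireb2 signal was above that of Aco1. These levels rest on the length of 1 principal transcript per gene, and in a knockout the length that can be read may be shorter.

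Added together, transcripts of both iron regulatory proteins came to 27.1 ± 0.793 CPM per kilobase in WT, 26.0 ± 1.54 in Irp1-/- and 14.0 ± 0.755 in Irp2-/- testes. The sum in Irp1-/- samples, 23.8 to 27.2, overlapped that in WT, whereas the highest Irp2-/- sample was at 14.7. Aco1 made up 11.3 ± 1.36% of the sum in WT, 8.63 ± 0.644% in Irp1-/- and 22.1 ± 2.27% in Irp2-/- testes. Most of the summed signal was therefore from Ireb2 in all genotypes. The sums are given without a test, and a count on a deleted gene is not a measure of working protein.

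The ratio of both genes within a sample does not depend on the sample's total count. There were 6.82, 8.60, 9.19 and 9.23 Aco1 counts per 100 Ireb2 counts in WT replicates 1 to 4. The ratio was 6.72, 6.31, 5.56 and 6.53 in Irp1-/- replicates 1, 2, 6 and 7, and 19.1, 16.3 and 21.3 in Irp2-/- replicates 1 to 3. The genotypes did not overlap, although WT replicate 1 was only just above the highest Irp1-/- sample. The geometric mean ratio in Irp1-/- testes was 0.746 of that in WT, and in Irp2-/- testes it was 2.24-fold that in WT. Between Irp1-/- and Irp2-/- testes it was 0.333. Each of the 3 differences had p = 0.0286 in a two-sided exact permutation test, the smallest p these group sizes allow, and 0.0286 after adjustment over 3. The ratio is formed from the same counts as the fits above, and the 3 comparisons share samples. Its tests are therefore not further evidence of the differences in Aco1 and Ireb2. For Irp1-/- against WT the exact permutation p was 0.0571 when any 1 of the Irp1-/- samples 1, 2, 6 and 7 was left out, although 0.0286 could still be reached.

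**Figure D3:**
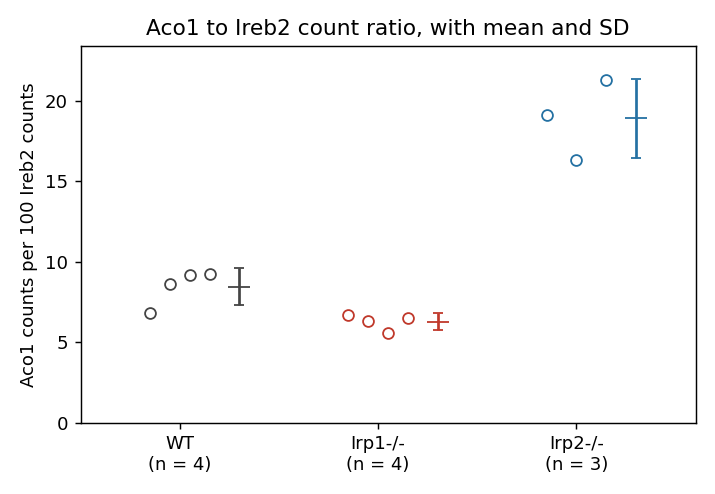
Aco1 counts per 100 Ireb2 counts in each of 11 testis samples, by genotype (points: samples; bars: mean ± SD). Irp1-/- samples lie between 5.56 and 6.72, WT between 6.82 and 9.23, and Irp2-/- between 16.3 and 21.3.

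Whole testis is a mixture, so that fewer cells of a type and less RNA per cell cannot be told apart. No tested marker of the 10 cell lists was called in Irp1-/- or Irp2-/- against WT testes, where 1.02% and 1.21% of all genes were. However, 0 of 3 epididymis genes and only 2 and 1 of 4 blood genes had enough counts to be tested. The Leydig cell list, led by Insl3, summed to 672 to 970 CPM in WT, 923 to 1107 CPM in Irp1-/- and 703 to 943 CPM in Irp2-/- testes. All 6 of its genes were higher in Irp1-/- than in WT, with a median log2 fold change of 0.40. All 6 Sertoli cell genes were higher as well, with a median of 0.09, and all 5 spermatocyte genes were lower, with a median of -0.08. The medians of the other germ cell lists were smaller in size and differed in direction. All 4 round spermatid genes were higher, with a median of 0.03. Of the elongating spermatid genes 2 of 5 were higher (median -0.03), and of the spermatogonia genes 2 of 6 (median -0.02). In Irp2-/- against WT all 5 macrophage genes were higher (median 0.17), and 4 of 6 Leydig (0.22), 4 of 6 Sertoli (0.02) and 5 of 6 spermatogonia genes (0.10). Among the later germ cells 1 of 5 spermatocyte (-0.02), 1 of 4 round spermatid (-0.04) and 0 of 5 elongating spermatid genes (-0.11) were higher there. Of the 4 blood genes Hbb-bs was at 0 in all genotypes. That list summed to 15.3 to 19.6 CPM in WT, 21.3 to 38.3 CPM in Irp1-/- and 8.64 to 22.6 CPM in Irp2-/- testes. The part of these differences in the lower Aco1 signal of Irp1-/- testes and the lower Ireb2 signal of Irp2-/- testes was not tested.

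The wider pathway was described with 5 lists of 51 genes, all of which were tested. In Irp1-/- against WT testes 0 of 51 were called (edgeR), against 1.02% of all genes. At an unadjusted p under 0.05 (edgeR) were 6 of the 51 and 1941 of all 16002 genes tested, so the 6 are not read as a result. In Irp2-/- against WT 1 was called, or 1.96% against 1.21% of all genes, and between the knockouts 4 were called, or 7.84% against 4.69% of all genes. The median log2 fold change of the 51 genes was within 0.01 of 0 in each comparison. Of all genes, 1.02%, 1.21% and 4.69% were called in these 3 comparisons. Of the 10 transcripts known for iron-responsive elements, the kind of hairpin that both proteins bind, 0, 1 and 2 were called. Their median log2 fold changes were 0.02, 0.07 and -0.08, against medians under 0.01 in size over all genes tested.

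Epas1, the hypoxia-inducible factor 2 alpha gene whose transcript has an iron-responsive element at its start, was the gene called in Irp2-/- testes. It had 35.7, 34.6, 38.3 and 37.5 CPM in WT replicates 1 to 4, 39.1, 32.7, 36.5 and 32.1 CPM in Irp1-/- replicates 1, 2, 6 and 7, and 47.7, 47.5 and 46.9 CPM in Irp2-/- replicates 1 to 3. Every Irp2-/- sample was above every other sample. Of all genes, 9.76% had groups without overlap in Irp2-/- against WT and 15.1% between the knockouts. Epas1 rose in Irp2-/- against WT testes by a log2 fold change of 0.36 (edgeR, SE 0.0557, adjusted p = 7.3e-04). It was lower in Irp1-/- than in Irp2-/- testes (log2 fold change -0.42, adjusted p = 2.3e-04, edgeR), while against WT the Irp1-/- value was -0.07 (edgeR adjusted p = 0.684). It remained called in all 14 alternatives of both comparisons where it was called.

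Fth1, the ferritin heavy chain that stores iron and a classical target of translational block, had 142, 141, 148 and 151 CPM in WT, 157, 155, 152 and 166 CPM in Irp1-/- and 143, 123 and 131 CPM in Irp2-/- testes. The knockouts lay on opposite sides of the WT mean, with Irp2-/- replicate 1 within the WT range. They did not overlap each other, as was the case for 15.1% of all genes in that comparison. Fth1 was higher in Irp1-/- than in Irp2-/- testes by 0.26 on the log2 scale (edgeR adjusted p = 0.00499). It was called in neither knockout against WT (log2 fold changes 0.10 and -0.16, edgeR adjusted p = 0.289 and 0.168). Without Irp2-/- replicate 2 the adjusted p between the knockouts was 0.0676 (edgeR).

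The other genes of the list with iron-responsive elements were not called. The transferrin receptor gene Tfrc, which imports iron, was at 17.2 CPM in both WT and Irp1-/- and at 18.3 CPM in Irp2-/- testes. Ftl1, the ferritin light chain, was at 61.6, 71.8 and 76.8 CPM in WT, Irp1-/- and Irp2-/- testes (log2 fold changes against WT 0.21 and 0.30, adjusted p = 0.29 and 0.653, edgeR). The list's most abundant gene was Cdc14a, a phosphatase gene, at 283, 256 and 274 CPM.

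The partners of Fbxl5 showed no call. Of the 10 genes of the SCF ligase and of neddylation, the modification that activates it, 0 were called in each of the 3 comparisons. Of all genes 1.02%, 1.21% and 4.69% were called there, so 0 of 10 is not read as a result about these genes. Their median log2 fold changes were -0.02, 0.01 and -0.02. The linker Skp1a was at 154, 150.4 and 155 CPM in WT, Irp1-/- and Irp2-/- testes, and the scaffold Cul1 at 150.0, 146 and 149.6 CPM. Cand1, which exchanges F-box proteins on the ligase, was the most abundant, at 305, 302 and 299 CPM.

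The iron-sulfur cluster of Irp1 is built in mitochondria and inserted in the cytosol. Of 11 genes of cytosolic cluster assembly 0 were called in each comparison, against 1.02%, 1.21% and 4.69% of all genes. The most abundant, Glrx3, was at 122 CPM in WT and Irp1-/- and at 125 CPM in Irp2-/- testes. Hspa9 was the most abundant of the 13 mitochondrial genes, at 328, 337 and 332 CPM. Of the 13, 1 was called, only between the knockouts, where 4.69% of all genes were. This was Fdxr, which passes electrons to ferredoxin for cluster building and for steroid synthesis. It had 18.5 ± 2.84 CPM in WT, 22.3 ± 0.855 CPM in Irp1-/- and 18.1 ± 2.49 CPM in Irp2-/- testes, and the log2 fold change between the knockouts was 0.31 (edgeR adjusted p = 0.0267). Between these genotypes all 6 Leydig cell genes were higher in Irp1-/- testes and 2 of them, Hsd3b1 and Insl3, were called, in a comparison where 4.69% of all genes were. Rhox5 of the Sertoli cell list and Sall4 of the spermatogonia list were called there too. The part of Leydig cells in the Fdxr value was not tested.

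Of 7 genes of citrate and isocitrate metabolism, the substrate and product of aconitase, 1 was called. This was again between the knockouts, where 4.69% of all genes were called. Idh1, cytosolic isocitrate dehydrogenase, had 44.5 ± 0.824 CPM in Irp1-/- and 38.5 ± 2.63 CPM in Irp2-/- testes (log2 fold change 0.22, adjusted p = 0.0266, edgeR). In WT it had 37.8 ± 8.75 CPM, with replicates 1 and 2 at 31.1 and 29.8 CPM and replicates 3 and 4 at 47.6 and 42.7 CPM, so the WT samples spanned both knockouts. Me1, cytosolic malic enzyme, was the most abundant of the list at 394, 398 and 397 CPM. Fdxr and Idh1 were each called in only 2 of the 7 fits that left out 1 sample, with adjusted p up to 0.188 and 0.0991 (edgeR). In these fits it was highest without Irp2-/- replicate 2 for both genes, and Idh1 was also not called when all 11 samples were fitted together (edgeR adjusted p = 0.485).

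**Figure D4:**
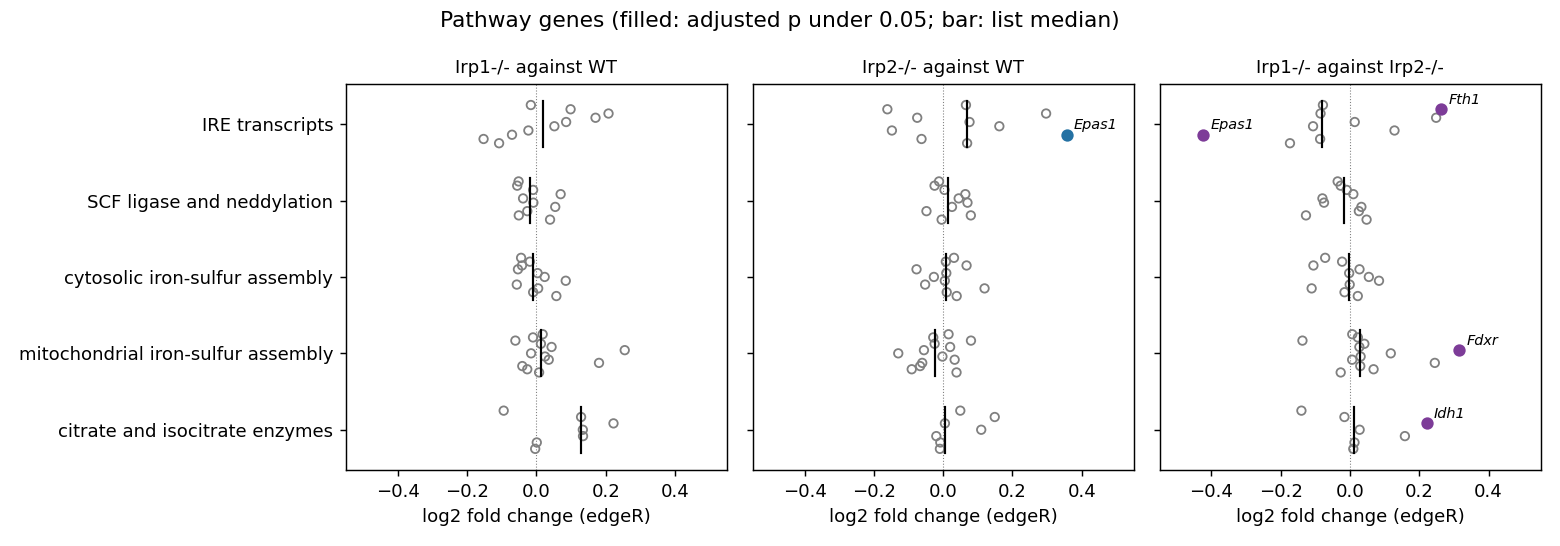
Log2 fold changes of the genes of 5 pathway lists in each of 3 comparisons (points: genes; filled points: adjusted p under 0.05 in edgeR; short bars: list medians). Epas1 at 0.36 in Irp2-/- against WT testes and Fth1, Epas1, Fdxr and Idh1 between the knockouts are the genes called, and none of the 51 is called in Irp1-/- against WT.

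The tested genes nearest to each locus were examined too. Ddx58, an RNA sensor gene that begins 4767 bases beyond Aco1, had a log2 fold change of 0.17 in Irp1-/- against WT testes (edgeR adjusted p = 0.58). On the other side the nearest tested gene, 1700009N14Rik, was 691484 bases away and had a log2 fold change of 0.01. Hykk, 4755 bases beyond Ireb2, had a log2 fold change of -0.29 in Irp2-/- against WT (edgeR adjusted p = 0.856), and Crabp1, 89547 bases before it, had 0.15 (edgeR adjusted p = 0.89). Cc2d2a and Cd38 lie 3642 and 86659 bases from Fbxl5, and neither was called. None of these 6 genes passed the test in any comparison. Genes farther from each locus were not examined by position.

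Genes whose log2 CPM followed each member most closely over the 11 samples were named as a description, since the points share genotype and library. Picking them on these samples favours genes that differ by genotype as the member does. Their fold changes and adjusted p-values are therefore not further evidence. For Aco1 they were Rhebl1, Taf5 and Ppm1l, with Pearson's r of 0.915, 0.914 and 0.905. Ppm1l, a protein phosphatase gene on chromosome 3, had 17.6, 13.2 and 17.4 CPM in WT, Irp1-/- and Irp2-/- testes. It fell in Irp1-/- against WT with a log2 fold change of -0.42 (edgeR adjusted p = 0.00772), whereas Rhebl1 and Taf5 were not called there (log2 fold changes -0.38 and -0.21, edgeR adjusted p = 0.424 and 0.107). For Ireb2 they were Atg4c, an autophagy protease gene, Gm7444 and Adam25, a germ cell metalloprotease gene, with r of 0.991, 0.982 and 0.970. Atg4c on chromosome 4 had 28.8, 28.9 and 14.3 CPM (Irp2-/- against WT -1.03, adjusted p = 1.0e-09, edgeR). Gm7444, on chromosome 9 like Ireb2, had 516, 523 and 232 CPM (-1.17, adjusted p = 2.6e-08, edgeR). Adam25 had 55.7, 57.7 and 42.7 CPM (-0.40, adjusted p = 2.6e-04, edgeR). For Fbxl5 they were Fam161a, Lap3 and Ms4a5, with r between 0.876 and 0.897. The level of Fam161a was 187, 182 and 170.2 CPM in WT, Irp1-/- and Irp2-/- testes.

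**Figure D5:**
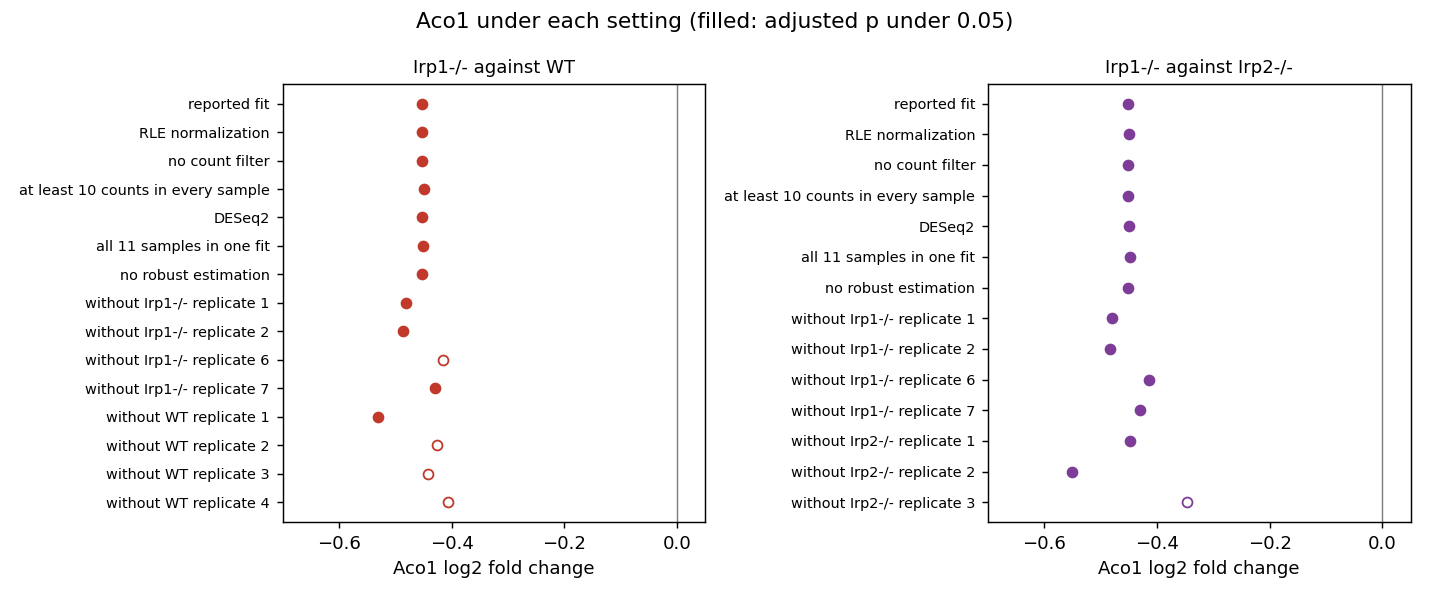
Log2 fold change of Aco1 in Irp1-/- against WT testes (left) and against Irp2-/- testes (right) in the reported fit, under 6 other settings and without each sample in turn, with the fit that adds a replicate block not drawn (filled points: adjusted p under 0.05; vertical line: no difference). The estimates drawn lie between -0.53 and -0.41 on the left and between -0.55 and -0.35 on the right, and the fits without Irp1-/- replicate 6 or WT replicate 2, 3 or 4 on the left and without Irp2-/- replicate 3 on the right are the open points.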

How the data were processed

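RNA was purified by the authors from decapsulated testes (RNeasy, polyA selection, stranded mRNA libraries, 50-base paired-end reads), demultiplexed with bcl2fastq 2.20.0.422 per the labels and processed in the nf-core workflow for RNA-seq, with mm10 as reference. The authors deposited raw read counts per gene. The counting tool and strand setting are not given in the sources used here. The headers carry a letter of unstated meaning, R for Irp1-/- replicate 6 and L for the others, which was not used.

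CPM was computed from each sample's total. Tests used R 4.3.3 and edgeR 4.0.16 (filterByExpr, TMM, robust quasi-likelihood, Benjamini-Hochberg over all genes tested) on the samples of the 2 genotypes compared, with an adjusted p under 0.05 as a call. The standard error (SE) was the log2 fold change divided by the root of F. Scripts were tested on simulated data. The log2 ratio of Aco1 to Ireb2 was tested by exact permutation (scipy 1.17.1), which cannot go below 0.0286 for 4 against 4 or 4 against 3 samples. Replicates of a genotype differed beyond counting noise in all 15 pairs (chi-square per degree of freedom 1.97 to 6.75).

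The members and lists were chosen with earlier results of these data known. Genes named were the 3 members, pathway genes called in any comparison or most abundant in their list, the nearest tested gene on each side of a member and the 3 genes most correlated with each (log2 CPM, prior count 2). Tfrc, Ftl1, Skp1a and Cul1 were named in addition, with their values known. Positions are from RefSeq and transcripts from GENCODE M21 (GRCm38). Alternatives were RLE normalization, a minimum of 10 counts, no filter, DESeq2 1.42.0, no robust fit, a fit of all 11 samples, a replicate block and leaving out each sample.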

Additional observations from a re-analysis of the deposited data

Results flagged for a closer look

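Ireb2 in WT testes was singled out because 1 sample lay apart from the others. Replicate 3 was at 132 CPM and the other 3 samples between 140.1 and 142 CPM, a gap of 0.856 of the whole range. Samples apart from their group were sought in 8 groups of 4 and 1 was found, where chance gives about 0.4. The log2 fold change of Ireb2 in Irp2-/- against WT testes was between -1.20 and -1.15 over all 14 alternatives, the one without this replicate included.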

How the results depend on the processing

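Of the values recomputed, 191 kept their direction and side of the threshold or, for counts of genes, stayed within 1.5 times the reported count, 25 were weaker, 16 moved and 8 turned in direction. Fits that left one sample out also had fewer samples, and no cause of these changes was tested. Ireb2 in Irp2-/- against WT was called in all 14 alternatives, and Fbxl5 in none (adjusted p 0.182 to 0.763 in Irp1-/- and 0.224 to 0.658 in Irp2-/- against WT, and 0.592 to 0.939 between the knockouts, edgeR or DESeq2). The sources used here do not state that replicate numbers pair the samples. Deviations of same-numbered samples correlated by -0.0100 to 0.0778 and those of differently numbered samples by -0.132 to 0.0835, which does not decide it. A fit with the number as a replicate block draws its genotype effect only from numbers found in both groups. These are 1 and 2 in Irp1-/- against WT and between the knockouts, and 1, 2 and 3 in Irp2-/- against WT. Under that fit Aco1 was at -0.28 in Irp1-/- against WT (adjusted p = 0.314, edgeR) and at -0.26 between the knockouts (adjusted p = 0.368, edgeR). In Irp1-/- against WT 4 of 51 pathway genes were called (Acly, Fdxr, Ftl1 and Idh1), beside 439 of all 16002 genes. In Irp2-/- against WT 2 of 51 were called (Epas1 and Ftl1), beside 132 of all 16154 genes. These values are therefore not estimates from all samples. Aco1 in Irp2-/- against WT, near 0, was -0.00410 with RLE, -0.00110 with at least 10 counts, -0.00475 with DESeq2 and -0.00197 with all 11 samples fitted. Leaving out each sample in turn gave, in Irp1-/- against WT, -0.53 to -0.41 for Aco1, -0.055 to 0.018 for Ireb2 (positive without Irp1-/- replicate 7), 0 to 1 pathway genes, 55 to 216 genes called (55 without Irp1-/- replicate 1, 84 without WT replicate 2, 102 without Irp1-/- replicate 6, 106 without WT replicate 4) and -0.52 to -0.37 for the log2 ratio of Aco1 to Ireb2 (exact permutation p 0.0286 to 0.0571). In Irp2-/- against WT it gave -0.10 to 0.10 for Aco1, 1 to 2 pathway genes, 118 to 223 genes called (118 without Irp2-/- replicate 2) and 1.06 to 1.26 for the log2 ratio (exact permutation p 0.0667 to 0.1). Between the knockouts it gave -0.55 to -0.35 for Aco1, 1 to 4 pathway genes, 414 to 763 genes called (414 without Irp2-/- replicate 2, 471 without Irp1-/- replicate 1) and -1.69 to -1.497 for the log2 ratio. With 4 against 2 or 3 against 3 samples the ratio test cannot go below 0.0667 or 0.1, so those values say nothing of its stability. The count of Aco1 is low, and the remaining exons of each deleted gene cannot be read from counts per gene.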
